A study of Mus musculus with 16 samples.

Results

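The lysosome acidification, proteolysis and autophagy genes described here are 40 genes taken from a named list: 15 subunits and accessory proteins of the vacuolar proton pump (V-ATPase), 8 lysosomal proteases and hydrolases, 4 lysosomal membrane proteins and 13 autophagy genes. All 40 symbols were found among the 23284 symbols of the deposited counts, and all 40 passed the filter on low counts, which left 14825 genes to test. The list was put together as targets of the MiT/TFE transcription factors. Its rule uses no value of these counts, but it was chosen with earlier results of these data known. RNA was sequenced from 9 mouse lung tumors of genotype Max -/- (null tumors 1 to 9) and 7 of genotype wild type for Max (wild-type tumors 1 to 7), all on strain background 129/SvJ; C57BL/6. The tumors of both groups arose in mice of the line labelled RP after adenovirus with a CMV-driven Cre recombinase had been instilled into the trachea. RP is a common short name for conditional Rb1 and Trp53 alleles, but the labels do not spell it out. The CMV promoter is active in many cell types, so the cell of origin is not set by the promoter, and the labels give no age and no number of animals. The labels do not say that each tumor came from a separate mouse, and the p-values therefore cover only the spread among the samples sequenced.

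Lysosomes break down proteins, glycogen and lipids at acid pH. The V-ATPase pumps protons into them: its cytosolic V1 sector hydrolyses ATP and turns a central shaft, and its membrane-embedded V0 sector carries the protons across. Autophagy wraps cytoplasm in a double membrane, decorated with lipid-linked ATG8 proteins such as LC3 and GABARAP, and delivers it to the lysosome. TFEB, TFE3, MITF and TFEC (the MiT/TFE factors) switch on many of these genes by binding the E-box CACGTG, often inside a longer element known as CLEAR. MAX, the partner of MYC, MYCL and MYCN and of the MXD proteins, MNT and MGA, binds the same 6 letters.

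The E-box was searched in the RefSeq promoters of the members (build GRCm38.p6, 250 bases before to 50 bases after each start). Of the 40 members, 33 were in that table and 12 of these 33 had CACGTG in a promoter (36.4%), against 2187 of all 27025 genes in the table (8.09%) and 1195 of the 10478 tested genes found in it (11.4%). CACGTG reads the same on both strands. The extended form GTCACGTG, on either strand and always overlapping a CACGTG, was present in 7 of 33 members (21.2%), against 2.55% of all genes and 4.50% of tested genes. A list described as MiT/TFE targets can be rich in this motif by its definition, so these shares describe the list and are not independent evidence. Windows are shown for the called member that had an E-box (Gaa) and for 4 members with more than 1 E-box, to show how the motif is placed before these genes. Each runs 5′ to 3′ on the gene's strand with the E-boxes in capitals. It ends 20 bases after the last E-box shown, or at the annotated start of the gene where that comes first. Gaa is at chr11:119267803-119267848 (+), Lamp1 at chr8:13159080-13159160 (+), Atp6v0b at chr4:117887334-117887385 (-), Ctsd at chr7:142388047-142388077 (-) and Mcoln1 at chr8:3500428-3500456 (+), all RefSeq GRCm38.p6.
Gaa: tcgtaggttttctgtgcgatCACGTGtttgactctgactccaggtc
Lamp1: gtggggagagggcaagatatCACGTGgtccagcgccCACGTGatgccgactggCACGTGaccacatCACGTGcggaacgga
Atp6v0b: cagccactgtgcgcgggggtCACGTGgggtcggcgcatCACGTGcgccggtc
Ctsd: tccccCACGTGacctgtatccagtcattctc
Mcoln1: ttagaaagggtcgcgcttgtCACGTGttc
The Gaa E-box began 140 bases before the RefSeq start, and the 4 of Lamp1 lay between 61 and 15 bases before it. Ctsd and Mcoln1 each had 2 E-boxes in the searched promoter, of which 1 lies past the annotated start and is not shown. Ctsa also had 2 in a promoter, but none before both its RefSeq and its annotated start, and has no window. The E-boxes of Atg7, Atp6v0d1, Atp6v0e, Atp6v1a and Ctsl likewise did not lie before both starts. The promoters of Atp6v1d and Scarb2, which also changed, held no CACGTG. Atp6v1g1 and Map1lc3a were not in the table.

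Reads in genes were 8.66 to 15.11 M (megareads) in null tumors and 9.15 to 13.2 M in wild-type tumors, so counting error is small for all members but those of a few CPM (counts per megaread of the TMM-scaled library). Max itself measured 64.2, 75.9 and 83.5 CPM (lowest, median, highest) in null tumors and 52.4, 67.7 and 75.9 CPM in wild-type tumors, a log2 difference of 0.18 ± 0.11 (SE, adjusted p = 0.281). That count covers the whole gene and cannot check the deletion, so every direction below is between groups as labelled. The share of reads aligned to more than 1 place was 9.17% to 11.8% in null tumors and 12.3% to 22.2% in wild-type tumors, with no overlap (exact permutation test over 11440 splits, two-sided, p = 8.741e-05, the smallest this design can give; 0.00035 adjusted over 4 library properties). Wild-type tumors 2, 4 and 7, at 16.01%, 20.8% and 22.2%, stood farthest apart. Each called member is therefore also given without these 3 tumors, a comparison of 9 null with 4 wild-type tumors. Those 4, at 12.26% to 14.58%, still lie above every null tumor. Leaving out the 3 thus narrows the difference in that share but does not remove it.

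Few of the 40 members changed, and not in 1 direction. In null tumors 2 members rose (Gaa and Scarb2), 3 fell (Atp6v1d, Atp6v1g1 and Map1lc3a) and 35 did not pass the test. The 5 called members are 12.5% of the list, against 16% of all genes tested (2378 of 14825). The 2 that rose compare with 7.40% of all genes higher in null tumors, and the 3 that fell with 8.64% lower. The list's share of calls was therefore near that of the transcriptome. The median log2 difference was -0.11 over the members and -0.03 over all genes, with 17 members above 0 and 23 below. No member had groups that did not overlap, against 1.56% of all genes. The SE of the members' log2 differences ran between 0.12 and 0.34. At an unadjusted p under 0.05 there were 10 members, 3 higher and 7 lower. The share of all genes under that unadjusted limit was not taken, so this count says nothing particular to the list. Without wild-type tumors 2, 4 and 7 the calls were Gaa and Atp6v1d, 2 of 40, where 1.68% of all genes were called. In bulk tumors, fewer cells of a type and less RNA per cell cannot be told apart. Adjusted p-values are from edgeR's quasi-likelihood test with Benjamini-Hochberg adjustment over all genes tested.

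**Figure D1:**
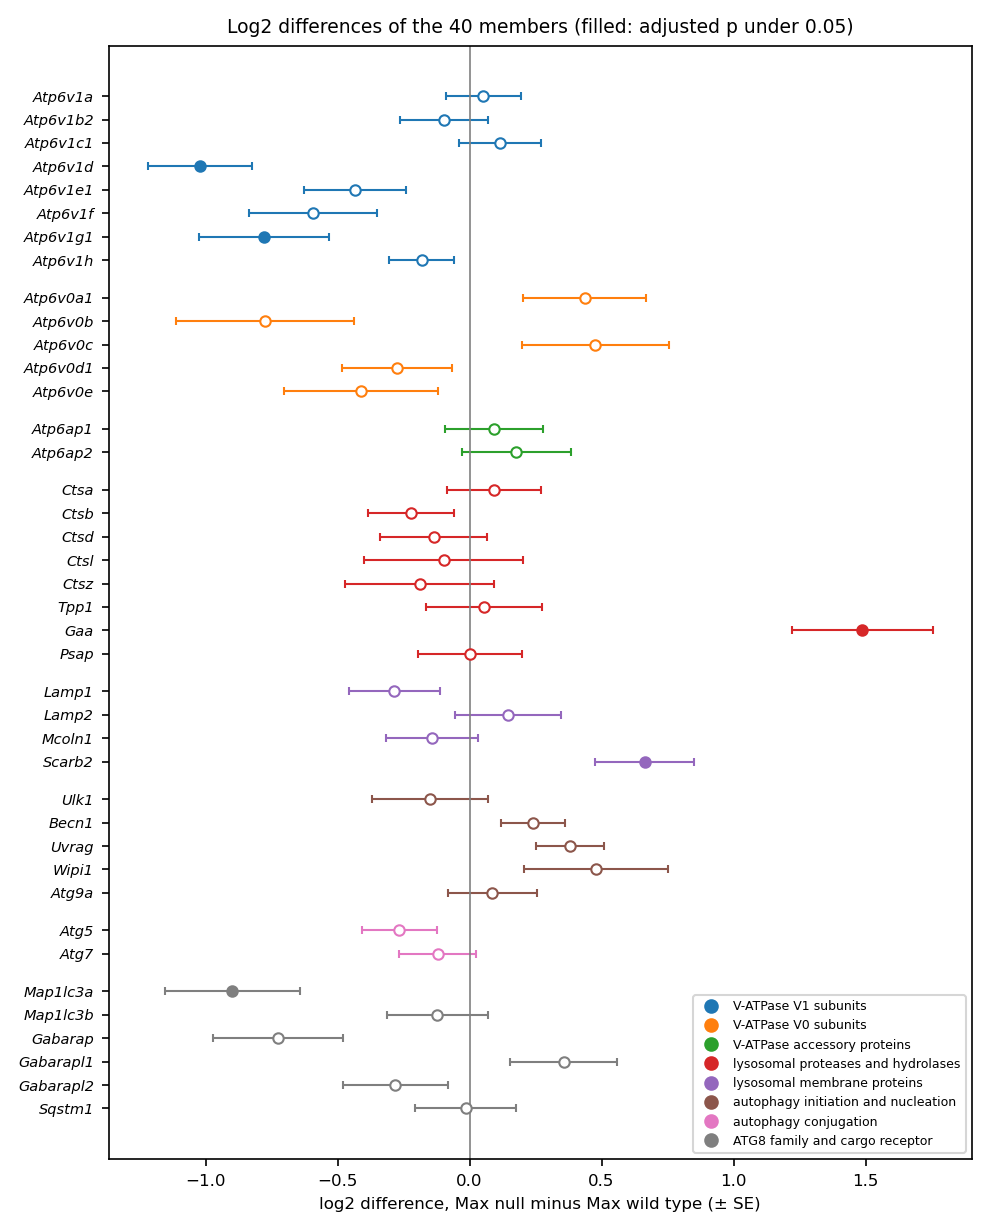
Log2 difference (Max null minus Max wild type, horizontal axis) of each of the 40 members, grouped by role; bars are ± 1 SE from the fit of 9 null and 7 wild-type tumors, and filled points passed an adjusted p of 0.05. Gaa (1.49) and Scarb2 (0.66) lie to the right, Atp6v1d (-1.02), Map1lc3a (-0.90) and Atp6v1g1 (-0.78) to the left, and the 35 other points are open.

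Of the 8 V1 members 2 were called, both lower (25%), against 16% of all genes called and 8.64% called lower. With so few members this share describes the list, and the sector as a set was not tested. Atp6v1d encodes subunit D of the central shaft (chr12:78840725-78861638, minus strand, GRCm38, GENCODE M21). It had 59.3, 66.6 and 85.2 CPM (lowest, median, highest) in null tumors and 80.7, 125.3 and 272.7 CPM in wild-type tumors. The lowest 8 of 9 null tumors lay below every wild-type tumor, and wild-type tumor 1 was the only one inside the null range. The log2 difference was -1.02 ± 0.20 (SE, adjusted p = 0.00495). It passed in all 16 fits that left out 1 tumor (-1.11 to -0.79). Wild-type tumor 7 was far above the rest, and without wild-type tumors 2, 4 and 7 the difference was -0.66 (adjusted p = 0.0419).

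Atp6v1g1 encodes subunit G of the peripheral stalks that hold the head still while the shaft turns (chr4:63544772-63550750, plus strand). It had 131.9, 182.7 and 269.7 CPM in null tumors and 140.1, 284.3 and 597.7 CPM in wild-type tumors. The highest wild-type values were those of tumors 7, 4 and 2, and the ranges overlapped widely. The log2 difference was -0.78 ± 0.25 (SE, adjusted p = 0.040). It passed in 5 of 16 fits that left out 1 tumor, and with wild-type tumors 2, 4 and 7 left out it was -0.23 (adjusted p = 0.583).

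The other 6 V1 members did not pass, and they did not share 1 direction. The subunits of the head that bind and hydrolyse ATP were near 0: Atp6v1a, subunit A, at 0.05 ± 0.14 and Atp6v1b2, subunit B, at -0.10 ± 0.17 (SE). Atp6v1e1, which pairs with subunit G in the stalks, was at -0.43 ± 0.19 (adjusted p = 0.125), and Atp6v1f, which sits with subunit D on the shaft, at -0.59 ± 0.24 (adjusted p = 0.0986). Both of these passed when wild-type tumor 1 was left out (-0.54, adjusted p = 0.0327, and -0.72, adjusted p = 0.0248), and both were near 0 without wild-type tumors 2, 4 and 7 (-0.02 and -0.06). Atp6v1c1, which joins the stalks to V0, was at 0.12 ± 0.16, and Atp6v1h, a regulatory subunit, at -0.18 ± 0.12. The exons of Atp6v1h overlap those of Rgs20 on the opposite strand by 5.84%. Summed over the 8 V1 members the levels were 1060, 1188 and 1515 CPM in null tumors and 1053, 1594 and 2289 CPM in wild-type tumors, the highest being wild-type tumor 7 and the lowest wild-type tumor 1.

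**Figure D2:**
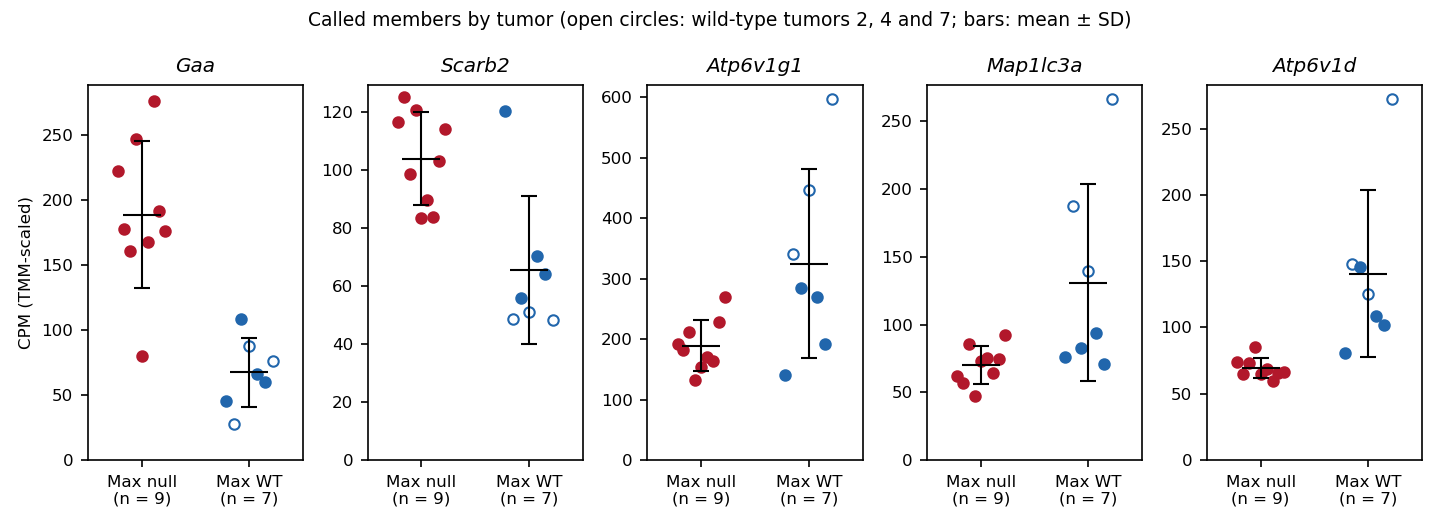
CPM of the 5 called members (vertical axes, each from 0) in 9 Max null tumors (left of each panel) and 7 Max wild-type tumors (right); points are tumors, bars the mean ± SD, and open circles wild-type tumors 2, 4 and 7. For Gaa a single null tumor, at 80.2 CPM, lies inside the wild-type range, and for Atp6v1g1 and Map1lc3a the open circles are the 3 highest wild-type tumors.

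None of the 5 V0 members passed. Atp6v0b, subunit c'' of the proton-carrying ring, had 168.1, 290.0 and 349.7 CPM in null tumors and 184.5, 337.5 and 1454 CPM in wild-type tumors. The ranges overlapped over nearly all tumors, with wild-type tumor 7 far above all others. Its log2 difference of -0.77 ± 0.34 (adjusted p = 0.119) was -0.19 without wild-type tumor 7. Atp6v0a1, subunit a1, which provides the path for protons past the ring, had 89.6, 119.8 and 216.9 CPM in null tumors and 51.1, 90.1 and 151.9 CPM in wild-type tumors. Null tumor 4 was the highest and wild-type tumors 7, 4 and 6 the lowest of all 16, and the log2 difference was 0.44 ± 0.23 (adjusted p = 0.203). Atp6v0c, the main ring subunit, was at 0.48 ± 0.28 (adjusted p = 0.243), with 4.77, 6.88 and 9.54 CPM in null tumors and 2.14, 5.74 and 7.74 CPM in wild-type tumors. The reference annotation names 2 pseudogenes of this gene, Atp6v0c-ps1 and Atp6v0c-ps2. Reads that also align to such copies enter no count, so its level is uncertain. Atp6v0d1, which couples the ring to the shaft, was at -0.27 ± 0.21, and Atp6v0e, a small membrane subunit, at -0.41 ± 0.29.

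The 2 accessory proteins did not pass. Atp6ap1, a V-ATPase partner needed for its assembly, had 153.3, 199.9 and 332.1 CPM in null tumors and 144, 176.8 and 300.8 CPM in wild-type tumors (0.09 ± 0.19, adjusted p = 0.762). Atp6ap2, the (pro)renin receptor, had 173.8, 236.7 and 373.6 CPM in null tumors and 145.6, 216.5 and 341.5 CPM in wild-type tumors (0.18 ± 0.21, adjusted p = 0.581). The groups overlapped over most of their range for both.

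On a scale of CPM per kb of the longest coding transcript, the 15 V-ATPase members spread widely although the pump holds them in fixed ratios. Atp6v0b was the highest at 281.5 per kb in null tumors and 481.9 per kb in wild-type tumors, and Atp6v0c the lowest at 5.97 ± 1.35 per kb (SD, n = 9) in null tumors and 4.28 ± 1.71 per kb (n = 7) in wild-type tumors. Atp6v1a and Atp6v1b2 encode subunits present in equal copy number in each pump. They stood at 47.5 and 107.1 per kb in null tumors and at 45.8 and 114.4 per kb in wild-type tumors. Atp6v1d was the second lowest of the 15 in null tumors, at 18.8 ± 2.05 per kb, against 38.3 ± 17.2 per kb in wild-type tumors.

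**Figure D3:**
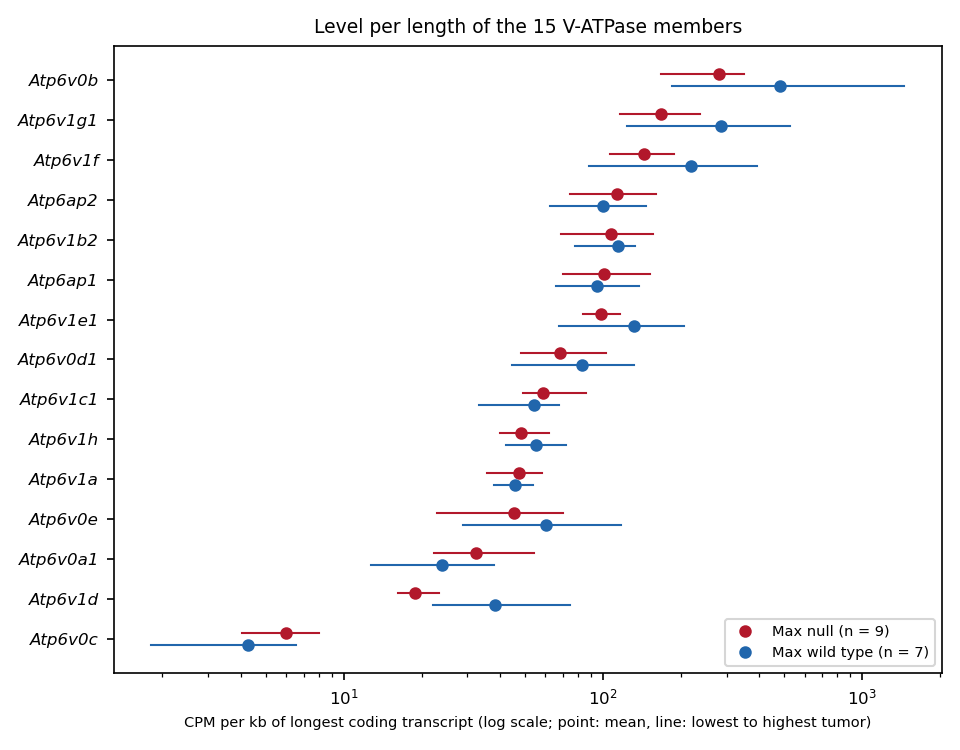
Level of each V-ATPase member in CPM per kb of its longest coding transcript (horizontal log axis), with the 9 Max null tumors above and the 7 Max wild-type tumors below for each gene; points are means and lines run between the lowest and highest tumor. The null range of Atp6v1d (16.2 to 23.2 per kb) lies mostly below its wild-type range (22.01 to 74.4 per kb).

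Gaa, acid alpha-glucosidase, which degrades glycogen in lysosomes and is missing in Pompe disease, had the largest difference of all 40 members (chr11:119267887-119285454, plus strand). It had 80.2, 177.6 and 276.7 CPM in null tumors and 27.95, 66.1 and 108.4 CPM in wild-type tumors. The highest 8 of 9 null tumors lay above every wild-type tumor, and null tumor 5 was the exception. The means were 189 ± 56.5 CPM (SD, n = 9) in null tumors and 67.4 ± 26.7 CPM (n = 7) in wild-type tumors, and Gaa rose by 1.49 ± 0.27 on the log2 scale (SE, adjusted p = 0.00353). It passed in all 16 fits that left out 1 tumor (1.35 to 1.64). With wild-type tumors 2, 4 and 7 left out, the difference was 1.43 (adjusted p = 0.0363). With a covariate for the multiply aligned share it was 1.62 (adjusted p = 0.127), in a fit that called 10 genes of 14825. The share does not overlap between the groups, so that fit cannot tell genotype and share apart. In that fit the 4 other called members moved toward 0 and did not pass: Atp6v1d was at -0.46 (adjusted p = 0.367), Scarb2 at 0.28 (adjusted p = 0.627), Atp6v1g1 at -0.0015 (adjusted p = 0.999) and Map1lc3a at -0.0048 (adjusted p = 0.996).

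The 7 other proteases and hydrolases did not pass, and their log2 differences lay between -0.22 and 0.09. Psap, the precursor of the saposins that help degrade sphingolipids, had 826.3, 1125 and 1488 CPM in null tumors and 750.6, 965.3 and 1580 CPM in wild-type tumors, with a log2 difference of 0.0013 ± 0.20. It had the highest level per kb of all members in null tumors and the second highest in wild-type tumors, after Atp6v0b. Among the cysteine cathepsins, the log2 differences were -0.22 ± 0.16 for Ctsb, -0.10 ± 0.30 for Ctsl and -0.19 ± 0.28 for Ctsz. Ctsd, the aspartic cathepsin, was at -0.14 ± 0.20. Ctsa, a carboxypeptidase that also protects other lysosomal enzymes, was at 0.09 ± 0.18, and Tpp1, a tripeptidyl peptidase, at 0.06 ± 0.22. The exons of Ctsb and Ctsa overlap those of Fdft1 (16.3%) and Pltp (13.5%) on the opposite strand, so their counts may mix or lack reads. The 8 genes together summed to 1924, 3141 and 4198 CPM in null tumors and 2510, 3299 and 3905 CPM in wild-type tumors. The lowest sum was that of null tumor 5, which was also the lowest null tumor for each of the 8 genes.

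Scarb2, also called LIMP-2, which carries glucocerebrosidase to the lysosome, was the other member that rose (chr5:92441314-92506833, minus strand). It had 83.4, 103.1 and 125.3 CPM in null tumors and 48.4, 55.9 and 120.3 CPM in wild-type tumors. Of the wild-type tumors, 6 of 7 lay below every null tumor, and wild-type tumor 1 lay near the top of the null range. The log2 difference was 0.66 ± 0.19 (SE, adjusted p = 0.0265). It did not pass when wild-type tumor 2, 4 or 7 was left out (lowest value 0.59), and without all 3 it was 0.42 (adjusted p = 0.266). The other membrane proteins did not pass. Lamp1 and Lamp2, the main glycoproteins of the lysosomal membrane, were at -0.28 ± 0.17 and 0.15 ± 0.20. Mcoln1, the calcium-conducting channel TRPML1, was at -0.14 ± 0.17. The exons of Lamp1 overlap those of Grtp1 on the opposite strand by 7.94%.

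None of the 5 members that start autophagy passed, and 4 of them were above 0. Uvrag, a partner of Beclin 1 in the lipid kinase complex that marks the new membrane, had 36.8, 43.1 and 47.2 CPM in null tumors and 24.1, 33.95 and 41.2 CPM in wild-type tumors. Here 7 of 9 null tumors lay above every wild-type tumor, and 6 of 7 wild-type tumors below every null tumor. The log2 difference of 0.38 ± 0.13 had an adjusted p of 0.0504, just outside the threshold. Uvrag passed in 6 of 28 alternative fits, and its adjusted p was 0.643 after a correction for transcript length and GC content. Becn1, Beclin 1 itself, had 100.7, 116.2 and 134.2 CPM in null tumors and 85.03, 96.1 and 141.4 CPM in wild-type tumors (0.24 ± 0.12, adjusted p = 0.179). Wild-type tumor 3 was the highest of all 16, and the other 6 wild-type tumors lay below every null tumor. The exons of Becn1 overlap those of Cntd1 on the opposite strand by 29.6%, so its count is uncertain. Wipi1, which reads the lipid mark, was at 0.48 ± 0.27 (adjusted p = 0.231), Atg9a, which brings lipids to the growing membrane, at 0.09 ± 0.17, and the initiating kinase Ulk1 at -0.15 ± 0.22.

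The conjugation genes did not pass either. Atg5, which forms the complex that attaches ATG8 proteins to lipid, had 35.04, 39.4 and 50.5 CPM in null tumors and 31.01, 47.1 and 60.3 CPM in wild-type tumors (-0.27 ± 0.14, adjusted p = 0.202). Atg7, the activating enzyme of that reaction, had 27.4, 36.1 and 45.99 CPM in null tumors and 29.6, 40.1 and 52.5 CPM in wild-type tumors (-0.12 ± 0.14, adjusted p = 0.595). For both the groups overlapped over most of their range.

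Among the ATG8 genes Map1lc3a, which encodes LC3A (chr2:155276297-155278073, plus strand), fell. It had 46.95, 73.4 and 92.5 CPM in null tumors and 70.7, 93.5 and 266.3 CPM in wild-type tumors. The 3 highest values of all 16 were those of wild-type tumors 7, 2 and 4, while wild-type tumor 5 lay just above the null range and the other wild-type tumors inside it. The log2 difference was -0.90 ± 0.26 (SE, adjusted p = 0.027). It did not pass without wild-type tumor 2 or without wild-type tumor 7, and with tumors 2, 4 and 7 left out it was -0.21 (adjusted p = 0.539). Gabarap, a member of the other branch of the family, had 171.2, 224.3 and 277.4 CPM in null tumors and 138.2, 327.1 and 708.5 CPM in wild-type tumors. Its log2 difference of -0.72 ± 0.25 had an adjusted p of 0.0518, and it was -0.17 without wild-type tumors 2, 4 and 7. Map1lc3b, the LC3 form most used as an autophagy marker, was at -0.12 ± 0.19, Gabarapl1 at 0.36 ± 0.20 and Gabarapl2 at -0.28 ± 0.20. Sqstm1, the cargo receptor p62, was at -0.01 ± 0.19 (adjusted p = 0.967).

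The spread between tumors of 1 group was wide and was shared by many members. Wild-type tumor 7 had the highest value of all 16 tumors for 15 of the 40 members, wild-type tumor 1 the lowest for 10, and null tumor 5 the lowest for 9. The high values of wild-type tumor 7 were those of Atp6v0b, Atp6v1d, Map1lc3a, Gabarap, Atp6v1g1 and Atp6v1f among others, and the same tumor was the lowest of all 16 for Scarb2. Its TMM factor was 0.748, against 0.936 to 1.067 in the other tumors, which scales all CPM of that tumor up. The part of this factor in its high values was not tested.

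**Figure D4:**
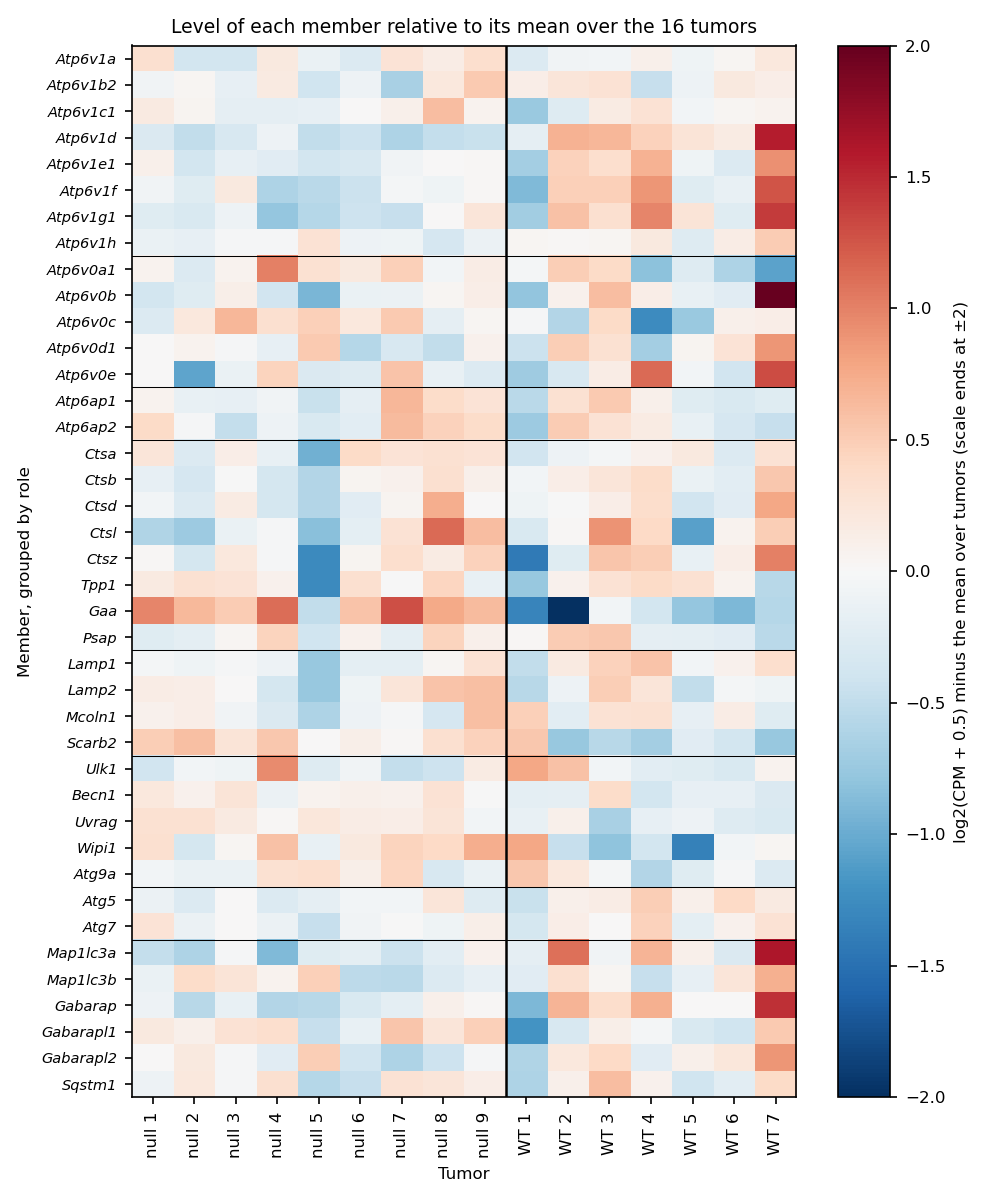
Each member (rows, grouped by role with lines between groups) in each tumor (columns, 9 Max null at left and 7 Max wild type at right), as log2(CPM + 0.5) minus the member's mean over the 16 tumors; red is above and blue below that mean. Wild-type tumor 7 is red for most V1 subunits, Atp6v0b, Map1lc3a and Gabarap, and null tumor 5 is blue for most hydrolases.

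The members' differences went with transcript length. Over the 40 members, Spearman's rho between the log2 difference and the length of the longest coding transcript was 0.48, and over 14660 tested genes with a length it was 0.40. These correlations are across genes that share the same 16 libraries, and are given as a description. The 11 members under 2000 bases had a median log2 difference of -0.43, with 9 of 11 below 0, against -0.38 for all genes under 2000 bases. The 29 longer members had a median of 0.0013, with 14 of 29 below 0, against 0.07 for all genes of at least 2000 bases. Within single tumors, the rho between length and a member's deviation from its mean was lowest in wild-type tumor 7 (-0.57) and highest in null tumor 4 (0.50). The subunits of the V-ATPase and the ATG8 proteins include most of the short members: Atp6v1f, Atp6v0b, Map1lc3a, Atp6v1g1, Atp6v0c, Atp6v1e1 and Gabarap all have transcripts of at most 1351 bases, while Gaa, Scarb2 and Atp6v1d have transcripts of 3633, 4698 and 3667 bases.

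**Figure D5:**
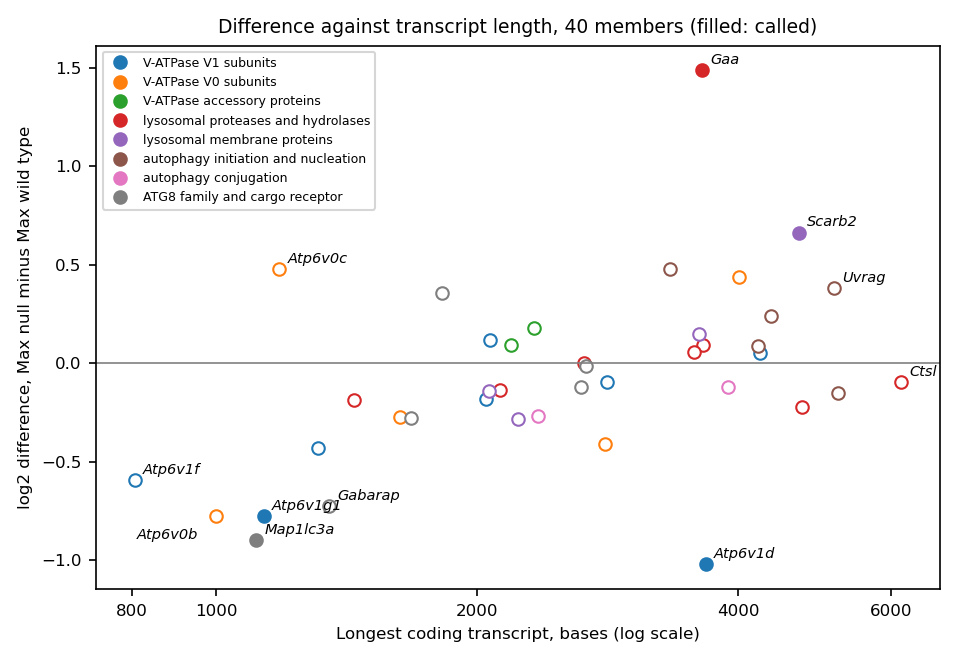
Log2 difference (Max null minus Max wild type, vertical axis) of the 40 members against the length of the longest coding transcript in bases (horizontal log axis), colored by role, with called members filled. Short members lie mostly below 0 (9 of 11 under 2000 bases), and Atp6v1d, at 3667 bases, lies apart from them at -1.02.

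After a correction for length and GC content the rho over the members was -0.02 and the calls were different. The correction takes out the trend with length in each library by construction, so that rho is not a result about the members. Gaa (1.24, adjusted p = 0.0149), Scarb2 (0.56, adjusted p = 0.0372) and Atp6v1d (-0.97, adjusted p = 0.0121) passed. Atp6v1g1 (-0.27, adjusted p = 0.231) and Map1lc3a (-0.56, adjusted p = 0.0804) did not. Atp6v1c1 (0.40, adjusted p = 0.0469) and Gabarapl1 (0.57, adjusted p = 0.0266) passed as higher in null tumors. Without wild-type tumors 2, 4 and 7 the rho over the members was 0.35, against 0.17 over all genes. With a covariate for the multiply aligned share it was -0.02 over the members and -0.05 over all genes, and the 11 short members had a median of 0.16, with 4 of 11 below 0. That fit cannot tell genotype and share apart, and the part of the share in the length relation was not tested.

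The factors that act on these genes, and further genes of the same pathways, were read in the same fit. None of the 4 MiT/TFE factors passed. Tfe3 was the most abundant by count, with 33.8, 45.1 and 73.9 CPM in null tumors and 38.5, 40.1 and 46.3 CPM in wild-type tumors (0.31 ± 0.17, adjusted p = 0.216). Tfeb was at 0.30 ± 0.28, Mitf at -0.08 ± 0.33 and Tfec at -0.25 ± 0.37. The 12 members with an E-box in a listed promoter included 1 that rose (Gaa) and none that fell, with a median of -0.14. The 21 members without one included 1 that rose (Scarb2) and 1 that fell (Atp6v1d), with a median of 0.06. Over all genes tested, 7.40% were called higher and 8.64% lower. The 7 members absent from the promoter table are on neither side. They include Atp6v1g1 and Map1lc3a, which fell, so this split cannot show whether falls go with the E-box.

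Of 21 tested genes of nutrient sensing at the lysosome, the pathway through which amino acids activate mTORC1, 2 rose, 2 fell and 17 did not pass. The called genes are 19.05% of this list, near the 16% of all genes tested. Rragb, which encodes the GTPase RagB, had 34.3, 57.02 and 112.8 CPM in null tumors and 12.3, 27.3 and 38.9 CPM in wild-type tumors, and rose by 1.25 ± 0.28 (adjusted p = 0.0105). RagB is a close relative of RagA, encoded by Rraga, and reads that fit both genes equally well enter neither count. Rragc, which encodes RagC, a partner of RagA and RagB in the heterodimer, had 76.03, 85.4 and 114.8 CPM in null tumors and 111.7, 129.1 and 435.7 CPM in wild-type tumors, and fell by 1.03 ± 0.25 (adjusted p = 0.0137). For both genes the groups touched only at the edges of their ranges. Nprl2, of the GATOR1 complex that switches the Rag GTPases off, fell by 0.63 ± 0.16 (adjusted p = 0.0163). Rptor, the raptor subunit of mTORC1, was the other gene that rose (0.54 ± 0.18, adjusted p = 0.0481); it is named because the count is small, after its value was seen. With wild-type tumors 2, 4 and 7 left out, none of Rragb (1.16, adjusted p = 0.0897), Rragc (-0.65, adjusted p = 0.0552) and Nprl2 (-0.49, adjusted p = 0.124) passed.

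Of 14 tested further V-ATPase subunits and assembly factors, 2 rose and 1 fell (21.4% called, against 16% of all genes tested). Atp6v1b1, the B subunit known from kidney and inner ear, was low in all tumors: it had 1.15, 2.10 and 13.5 CPM in null tumors and 0.153, 0.820 and 1.16 CPM in wild-type tumors, and rose by 2.64 ± 0.62 (adjusted p = 0.0116). The groups overlapped only at their edges. Dmxl2, rabconnectin-3, which helps the V1 and V0 sectors join, rose by 0.85 ± 0.22 (adjusted p = 0.0177), and Tmem199, which takes part in V-ATPase assembly, fell by 0.64 ± 0.19 (adjusted p = 0.0297). Of 12 tested further proteases, 2 were called (16.7%). Scpep1, a serine carboxypeptidase, rose by 0.51 ± 0.16 (adjusted p = 0.0357) and Ctss, the cathepsin of antigen-presenting cells, fell by 0.70 ± 0.22 (adjusted p = 0.0373). None of 21 further membrane and lipid proteins passed, among them the 2 with the highest mean CPM, Cd164 (-0.50 ± 0.27) and Laptm4a (-0.21 ± 0.15). Of these 5 called genes none passed without wild-type tumors 2, 4 and 7, where adjusted p ran between 0.0851 (Atp6v1b1) and 0.339 (Tmem199).

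Of 31 tested further autophagy genes, 1 rose, 2 fell and 28 did not pass (9.68% called, against 16% of all genes tested). Bnip3l, also called NIX, the mitophagy receptor on mitochondria, had 178.4, 241.4 and 302.5 CPM in null tumors and 321.5, 339.9 and 610.2 CPM in wild-type tumors. Every null tumor lay below every wild-type tumor, where 1.56% of all genes tested had groups that did not overlap. Bnip3l fell by 0.67 ± 0.17 (adjusted p = 0.016). With a covariate for the multiply aligned share its adjusted p was 0.489, in a fit that cannot tell genotype and share apart. The reference annotation names 1 pseudogene of this gene, Bnip3l-ps, and reads that also align to such a copy enter no count. Plekhm1, an adaptor for the fusion of autophagosomes with lysosomes, rose by 0.55 ± 0.16 (adjusted p = 0.0273). Wdr45l, a relative of Wipi1, fell by 0.46 ± 0.14 (SE, adjusted p = 0.0356). With wild-type tumors 2, 4 and 7 left out these were -0.44 (adjusted p = 0.12), 0.39 (adjusted p = 0.21) and -0.24 (adjusted p = 0.379).

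Other cells of a lung tumor are rich in lysosomes, so their markers were read beside the members. Of 13 macrophage markers 4 fell (C1qa, C1qb, C1qc and Cd68) and none rose; all were above 0 in every tumor, and their summed level was 442.9 to 1178 CPM in null tumors and 510.9 to 1156 CPM in wild-type tumors. The mean of their log2 CPM was 4.45 ± 0.36 in null tumors (SD, n = 9) and 4.71 ± 0.28 in wild-type tumors (n = 7; exact permutation test, two-sided, p = 0.128, adjusted over 4 properties 0.169). With that mean as a covariate, 913 of 14825 genes were called in all, against 2378 without it. Gaa (1.39, adjusted p = 0.0193) and Atp6v1d (-0.99, adjusted p = 0.0233) passed. Scarb2 (0.56, adjusted p = 0.0833), Map1lc3a (-0.74, adjusted p = 0.115) and Atp6v1g1 (-0.56, adjusted p = 0.209) kept their direction at a smaller size and did not pass. Alveolar type 2 cells carry lamellar bodies, which are lysosome-related organelles. Of 8 of their markers 1 rose (Abca3, the lipid transporter of lamellar bodies: 148.1, 205.5 and 315.3 CPM in null tumors, 53.7, 91.7 and 144.4 CPM in wild-type tumors; log2 difference 1.25 ± 0.22, adjusted p = 0.00347) and none fell. The sums were 734.7 to 3165 CPM in null tumors and 169.7 to 2148 CPM in wild-type tumors. The mean of their log2 CPM was 6.94 ± 0.67 in null tumors (SD, n = 9) and 6.05 ± 1.70 in wild-type tumors (n = 7; exact permutation test, two-sided, p = 0.169). Their part in the results on the members was not tested. Of 9 tested neuroendocrine markers none passed, with summed levels of 3849 to 7368 CPM in null tumors and 4050 to 26850 CPM in wild-type tumors. Of the remaining lists, Cxcr2 of 6 neutrophil markers and Pdpn of 5 alveolar type 1 markers fell, and no marker of T and NK cells, B cells, club cells, ciliated cells, endothelium or fibroblasts passed. The 4 calls among macrophage markers are 30.8% of that list, against 16% of all genes tested. Of the log2 differences of the 13 macrophage markers, 9 were below 0 and 4 above. Those above were Siglec1 (0.87), Cd14 (0.43), Lyz2 (0.40) and Csf1r (0.35), none of which passed. The single calls among alveolar type 2, neutrophil and alveolar type 1 markers are 12.5%, 16.7% and 20% of those lists. No list had a marker at 0 in every tumor.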

How the data were processed

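Per the labels' protocols, TRIZOL was used for extraction and an Ultra RNA kit for Illumina for the libraries, made from total RNA. The deposited values are counts, whole numbers of reads per gene symbol, with 1 file for each tumor. HTSeq 0.6.1, TopHat2 2.0.12, TopHat, bcl2fastq 1.8.4 and mouse build mm9 are listed, without roles, in the submitters' processing notes. Gene annotation and strand setting were not given in the sources used here. Totals of reads assigned to no gene (29.2% to 32.9% of reads in null files, 32.8% to 45.7% in wild-type files) were left out. The smallest chi-square between any of 120 pairs of libraries was 34.5 per degree of freedom, so no library was a copy of another.

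Genes were tested by the quasi-likelihood F test of edgeR 4.0.16 (with limma 3.58.1 and R 4.3.3) on the deposited counts of all 16 tumors, with TMM factors, filterByExpr by group and Benjamini-Hochberg adjustment over 14825 genes at a threshold of 0.05. It was tested on simulated counts. Each SE is the log2 difference, without its sign, over the square root of F. Lengths and gene positions are from GENCODE M21 (GRCm38), not the build of the files, matched by symbol. Longest coding transcripts gave CPM per kb. Members, lists and tests were chosen with earlier results of these data known. All members were named, with values by tumor for called members and for the 2 with the smallest p in role groups without a call. Of the further lists, all MiT/TFE factors, up to 3 called genes with the smallest p, or the 2 most abundant, were named. Alternatives were other scalings, DESeq2 1.42.0, limma-voom, other filters, covariates, a length and GC offset, a replicate block and leaving out tumors.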

Additional observations from a re-analysis of the deposited data

Results flagged for a closer look

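In 10 of 80 groups of tumors (40 members in each genotype) the highest or lowest tumor stood apart from the others by Dixon's criterion. Its nominal rate is about 1 in 20 groups, for independent and normally distributed values. These groups share the same libraries and were read as CPM, so no excess over that rate can be read from the count. Of the 10 flags, 6 were in null tumors and 2 were wild-type tumor 7. Among null tumors, Atp6v1c1 was 177.7 CPM in tumor 8 (nearest 130.5), Atp6v1h 127.3 CPM in tumor 5 (102.8), Atp6v0a1 216.9 CPM in tumor 4 (150.3), Ctsd 731.4 CPM in tumor 8 (497.7) and Ulk1 297.5 CPM in tumor 4 (173.2). Tpp1 was 34.0 CPM in null tumor 5, the only low value of the set (nearest 75.1). Among wild-type tumors, tumor 7 had 272.7 CPM of Atp6v1d (nearest 148.1) and 1454 CPM of Atp6v0b (489.2). Wild-type tumor 1 had 120.3 CPM of Scarb2 (70.4) and wild-type tumor 3 had 141.4 CPM of Becn1 (97.02). Of these genes Atp6v1d and Scarb2 are called. Atp6v1d kept its call without wild-type tumor 7, and Scarb2 kept it without wild-type tumor 1 (0.88).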

How the results depend on the processing

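Gaa passed in 27 of 28 alternatives (adjusted p 4.24e-06 to 0.127) and Atp6v1d in 26 (8.31e-05 to 0.367). Scarb2 and Map1lc3a passed in 20 each and Atp6v1g1 in 11. Leaving out 1 tumor gave 1 to 4 members higher and 1 to 6 lower (median -0.15 to -0.04). The number of genes called in all moved too, from 2378 of 14825 with every tumor kept. Without wild-type tumor 1 there were 10 member calls (3033 of 14918 genes in all). Without wild-type tumor 7 there were 2 (1555 of 14941). Without 2 or 4 there were 3 (1669 of 14951 and 1471 of 14929). Limma-voom gave 4 higher (2440 genes in all). The macrophage covariate gave 1 higher and 1 lower (913 genes), as did leaving out wild-type tumors 2, 4 and 7 (256 of 15276). The length and GC correction gave 4 higher and 1 lower (1560 genes). A change in the member count alone is therefore not particular to the list. With a covariate for the multiply aligned share the calls were 0 higher and 0 lower and the median 0.13, with 10 genes called in all. As the share separates the groups completely, genotype and share cannot be told apart in that fit. Tumor numbers did not pair the samples: correlations of same-numbered tumors ran between -0.17 and 0.24, and only tumor 3 correlated best with its own number. The replicate block over tumors 1 to 7 gave 1 higher and 0 lower (278 genes called in all), against 1 higher and 3 lower (1450 genes) without the block, a fit chosen after seeing the data.

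Directions turned for genes that were not called in the comparison of all 16 tumors. Values with a covariate for the multiply aligned share were Atp6v1e1 0.16, Atp6v1f 0.20, Atp6v1h 0.074, Atp6v0b 0.32, Atp6v0e 0.60, Ctsb 0.10, Ctsd 0.33, Ctsl 0.21, Ctsz 0.42, Tpp1 -0.033, Psap -0.24, Atg9a -0.14, Atg7 0.21, Map1lc3b 0.00066, Gabarap 0.092, Sqstm1 0.15, Mitf 0.28 and Tfec 0.58. Without wild-type tumors 2, 4 and 7 they were Atp6v0e 0.15, Ctsd 0.12, Ctsl 0.018, Ctsz 0.086, Psap -0.028, Atg9a -0.024, Atg7 0.070, Map1lc3b 0.0098, Sqstm1 0.11, Mitf 0.024 and Tfec 0.12. After length and GC correction they were Atp6v1h 0.13, Ctsa -0.057, Ctsz 0.056, Psap -0.014, Atg9a -0.13, Gabarapl2 0.10, Tfec 0.17 and Laptm4a 0.039. With the macrophage covariate they were Psap -0.051, Atg9a -0.015, Mitf 0.095 and Tfec 0.12, and with voom Ctsd 0.0071, Ctsl 0.020, Sqstm1 0.0092 and Mitf 0.18. The block gave Atp6v1a -0.034, Ctsa -0.011, Psap -0.056, Lamp2 -0.021 and Mitf 0.060, and the same tumors without it Atp6v1a -0.012, Psap -0.080 and Lamp2 -0.028. Psap was -0.011 under the stricter filter (at least 5 CPM in 7 samples) and -0.023 with upper-quartile factors, and Sqstm1 was 0.029 with no filter. Leaving out 1 tumor gave -0.00015 to 0.21 for Atp6ap1, -0.31 to 0.068 for Ctsl, -0.040 to 0.16 for Tpp1, -0.084 to 0.11 for Psap, -0.095 to 0.11 for Sqstm1 and -0.23 to 0.14 for Mitf. The cause was not tested. Depth limits chiefly Atp6v0c, the member with the lowest single value (2.14 CPM).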
